A study of Mus musculus with 6 samples.

Results

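The genes that take up vitamin A from the gut lumen and convert it in the mucosa were followed in the duodenum of mice that lack the vitamin D receptor (VDR-null) and of wild-type mice. The group holds 9 genes, chosen by name from what is known of intestinal vitamin A handling, with earlier results of these data known but with no rule on their measured values. They are Bco1, Isx, Rbp2, Lrat, Rdh7, Rdh1, Aldh1a1, Aldh1a2 and Dhrs3, out of 22180 genes for which the array had a probe set with a single gene symbol. All 9 were found, and 7 of them were bright enough to be tested, beside 13174 genes tested in all.

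Total RNA came from the duodenum of 3 VDR-null and 3 wild-type mice, each 10 weeks old and of C57Bl/6 background, with 1 whole-transcript Affymetrix Mouse Gene 2.0 ST array per sample. Apart from the receptor genotype, the labels give both groups the same strain, age and tissue. The sources used here name neither the targeted allele nor the sex or the diet of the mice, including its vitamin A and calcium content. Values are log2 signals, so that 1 unit is a factor of 2 in signal, and the overall median of the deposited values, 5.17, serves as the line below which a probe set was taken as dim.

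Dietary carotenes are cleaved to retinal inside enterocytes, and retinal is then reduced to retinol. Retinol bound to a cellular carrier protein is esterified and leaves the cell in chylomicrons, while a part is oxidised in sequence to retinal and retinoic acid. Retinoic acid binds nuclear receptors that work as partners of the retinoid X receptors, which the vitamin D receptor also uses as partners. In the intestine retinoic acid induces the homeodomain factor Isx, which represses genes of carotenoid uptake and cleavage, so that uptake follows vitamin A supply.

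Promoters of the 9 genes, from 250 bases before to 50 bases after each start site, were read from RefSeq (GRCm38.p6), in 13 windows since some genes have several start sites. They are shown for the genes that hold AGGTCA on either strand, the hexamer half-site that retinoid and vitamin D receptors share. Of the 9 genes 3 held it, in 3 of the 13 windows, against 16.3% of all 32851 promoter windows of the same length. Capitals mark the half-sites, each strand is that of the gene, and the windows lie at chr9:98490287-98490586 (plus strand) for Rbp2, chr8:117095615-117095914 (plus strand) for Bco1 and chr10:127889198-127889497 (minus strand) for the first window of Rdh7.
Rbp2: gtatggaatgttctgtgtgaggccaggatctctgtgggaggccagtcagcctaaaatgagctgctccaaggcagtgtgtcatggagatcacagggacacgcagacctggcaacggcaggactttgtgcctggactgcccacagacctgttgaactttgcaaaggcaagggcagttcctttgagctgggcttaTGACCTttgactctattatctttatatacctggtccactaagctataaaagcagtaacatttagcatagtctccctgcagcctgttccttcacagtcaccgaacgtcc
Bco1: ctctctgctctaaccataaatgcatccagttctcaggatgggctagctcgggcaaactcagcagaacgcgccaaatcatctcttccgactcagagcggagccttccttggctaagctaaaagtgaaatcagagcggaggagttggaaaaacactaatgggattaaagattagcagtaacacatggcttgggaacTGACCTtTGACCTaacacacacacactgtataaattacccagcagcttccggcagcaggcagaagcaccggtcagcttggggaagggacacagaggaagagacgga
Rdh7: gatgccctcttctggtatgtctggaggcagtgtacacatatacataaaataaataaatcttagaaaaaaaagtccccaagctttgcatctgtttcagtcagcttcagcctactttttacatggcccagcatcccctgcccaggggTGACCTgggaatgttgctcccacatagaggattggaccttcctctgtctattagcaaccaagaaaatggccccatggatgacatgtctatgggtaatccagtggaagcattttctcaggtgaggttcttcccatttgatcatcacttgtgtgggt
The half-site of Rbp2 began 58 bases and that of Rdh7 105 bases before the start site, both on the strand opposite to the gene. Bco1 held a pair of them, at 56 and 49 bases before the start, which together read TGACCTTTGACCT. That is a direct repeat spaced by 1 base (AGGTCANAGGTCA on the other strand), present in 13 of the 32851 windows, or 0.0396%. The same repeat spaced by 3 bases (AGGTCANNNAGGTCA), the arrangement known for the vitamin D receptor with its partner, was in none of the 13 windows and in 2 of all windows. The variant half-site AGTTCA (14% of all windows) was in Rbp2, and GGTTCA (10.4%) was in Isx and in the second Rdh7 window. Spaced by 5 bases, as in many retinoic acid response elements, the repeat was in none of the 13 windows and in 3 of all windows. TTTAT, a core of CDX-type sites, was in 5 of the 13 windows and in 40% of all windows, and the hexamer AGATAA, a zinc finger factor motif, in Rbp2 and the second Aldh1a1 window and in 11.2% of all windows. These are matches of letters in short windows, and binding was not measured.

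Before the single genes, the arrays themselves need a description, since several stood apart in markers of 1 or more cell types. All 18 markers of mature enterocytes were bright, as the tissue label calls for, and all 18 had a higher mean in VDR-null than in wild-type duodenum. Their mean signal was 11.99, 11.48 and 10.92 on VDR-null arrays 1 to 3, against 9.52, 11.24 and 11.13 on wild-type arrays 1 to 3. Wild-type array 1 was thus far below all others and VDR-null array 1 the highest, while the other 4 arrays lay within 10.92 to 11.48. In a piece of whole tissue, fewer cells of a type and less RNA per cell cannot be told apart. The mean of 8 smooth muscle markers was 9.86 on each VDR-null array and ran from 9.90 to 10.43 on wild-type arrays. Wild-type arrays 1 and 3, at 10.34 and 10.43, lay above the other 4 arrays there. Markers of T cells and intraepithelial lymphocytes were higher in VDR-null duodenum in 7 of 7 tested (median 0.70), with a mean of 7.83 on VDR-null array 1, the highest, and 5.98 on wild-type array 1, the lowest. Markers of crypt and dividing cells were lower in 9 of 9 (median -0.33), of endothelium in 6 of 6 (median -0.36) and of stomach and Brunner gland in 4 of 5 (median -1.06). No gene of these lists passed the adjusted threshold. VDR-null array 3 had the highest mean of the 3 pancreatic acinar markers tested, 9.81, where the other 5 arrays gave 5.87 to 7.43. The mean of 3 Y-linked transcripts was also lowest on that array, 6.82, against 7.70 to 7.88 on the other 5. Xist, the X-linked transcript read beside them, was dim on all 6 arrays, from 3.51 to 3.72. Vdr itself averaged 10.90 in VDR-null and 10.92 in wild-type duodenum, a difference of -0.03 ± 0.12 (SE; limma adjusted p = 0.944), and its probe set is no check of the genotype labels, since the sources used here do not name the deleted part of the gene.

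None of the 7 tested genes of vitamin A handling differed between the genotypes past the threshold of a limma adjusted p of 0.05, and neither did any of the 13174 genes tested (0%). In VDR-null duodenum 5 of the 7 genes were higher and 2 were lower, where 44% of all genes tested were higher. Their median log2 difference, VDR-null minus wild-type, was 0.26, and that of all genes tested was -0.03. At an unadjusted p under 0.05 stood 0 of the 7 genes, against 5.23% of all genes, and the arrays of the genotypes overlapped in all 7, whereas they did not overlap in 11.1% of all genes. The count of 5 higher genes became 4 without wild-type array 1, 3 without both replicate 1 arrays, 1 when the enterocyte marker mean of each array was a covariate, 3 with the smooth muscle marker mean and 6 with array weights. The adjusted p-values of the 7 genes lay between 0.683 and 0.877.

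**Figure D1:**
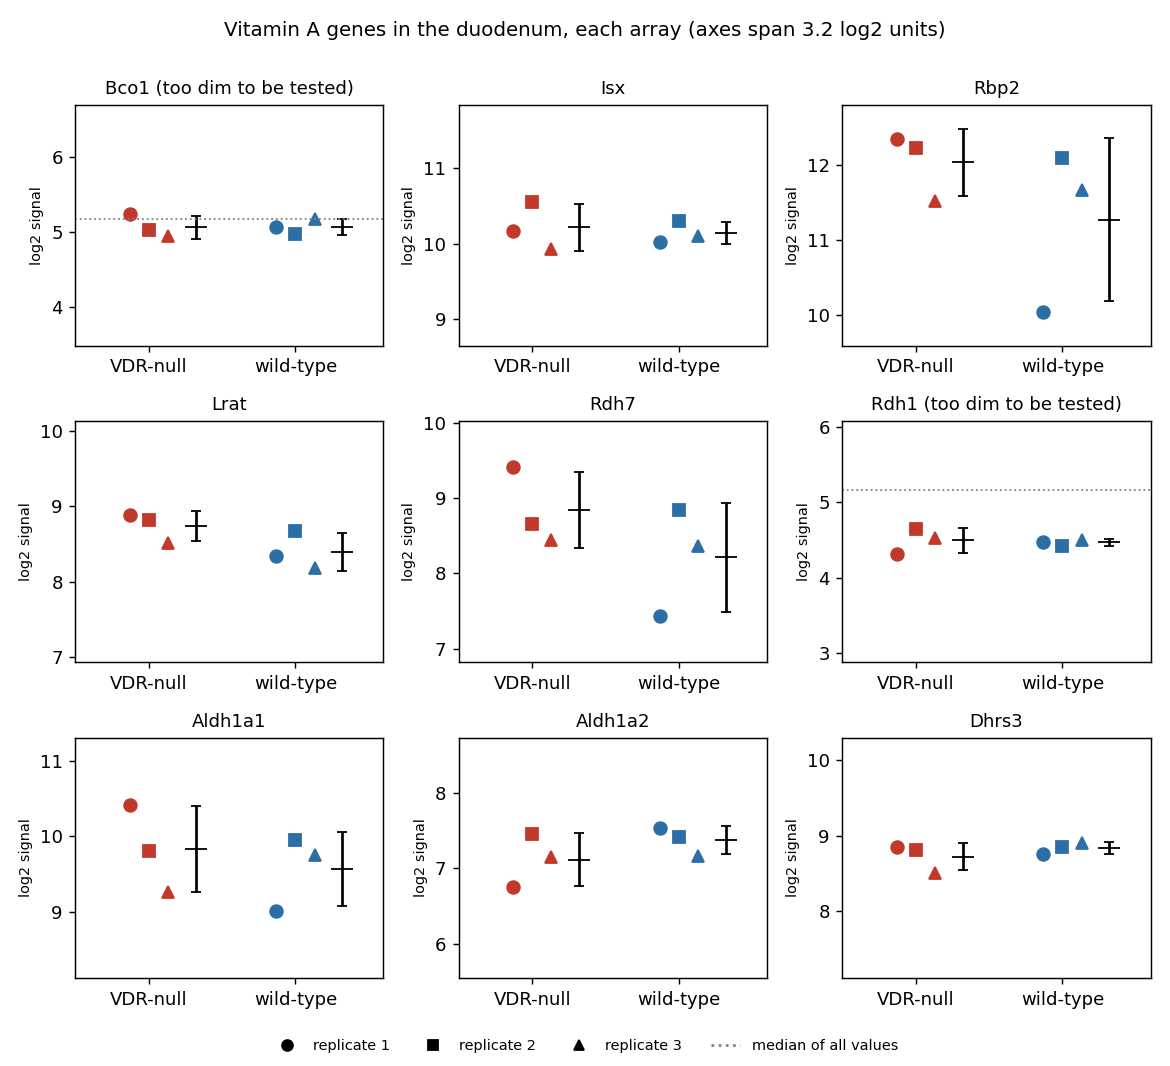
Log2 signal (y axis, 3.2 units in every panel) of the 9 vitamin A genes on each VDR-null array (red, left) and wild-type array (blue, right), with the marker shape giving the replicate number and the black bar the mean and SD of 3 arrays. Rbp2, Rdh7 and Aldh1a1 spread over more than 1 unit with wild-type array 1 lowest, and the genotypes overlap in every panel.

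Carotene cleavage and its regulator come first in the pathway. Bco1, the oxygenase that splits beta-carotene into retinal, was near the dim line on every array. It read 5.24, 5.02 and 4.94 in VDR-null duodenum, against 5.06, 4.97 and 5.18 in wild-type duodenum. Only 2 of the 6 arrays were above 5.17, 1 of each genotype, so the gene was not tested, and its means of 5.07 ± 0.15 in VDR-null and 5.07 ± 0.10 in wild-type duodenum (SD, n = 3 each) are close to background. The genotypes overlapped fully. Fitted with no filter on low signals, Bco1 had a limma adjusted p of 0.995.

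Isx, the homeodomain repressor of Bco1, was bright in both genotypes. It read 10.16, 10.55 and 9.94 in VDR-null duodenum, against 10.03, 10.30 and 10.10 in wild-type duodenum. The highest and the lowest of the 6 values were both VDR-null arrays, so the wild-type range lay inside the VDR-null range. The difference was 0.07 ± 0.17 (SE; 95% confidence interval -0.33 to 0.48; limma adjusted p = 0.877). Its sign depended on 1 array, with -0.093 without VDR-null array 2.

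Scarb1, the scavenger receptor that takes up carotenoids and a second gene that Isx is known to repress, was lowest on wild-type array 1. It read 8.94, 8.66 and 8.19 in VDR-null duodenum, against 7.83, 8.68 and 8.58 in wild-type duodenum. Isx did not show the drop on wild-type array 1. The difference of Scarb1 was 0.24 ± 0.27 (SE; limma adjusted p = 0.769).

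Carriage and esterification of retinol were represented by Rbp2 and Lrat. Rbp2, the retinol-binding protein of enterocytes, lies on chromosome 9 from 98490537 to 98509771 (GRCm38.p6) and gave the largest difference of the 7 tested genes. It read 12.34, 12.23 and 11.52 in VDR-null duodenum, against 10.05, 12.09 and 11.66 in wild-type duodenum. Wild-type array 1 alone was far below the rest, and VDR-null array 3 was below the other wild-type arrays. The means were 12.03 ± 0.45 in VDR-null and 11.27 ± 1.08 in wild-type duodenum (SD, n = 3 each), a 1.70-fold difference, or 0.76 ± 0.52 on the log2 scale (SE; 95% confidence interval -0.47 to 2.00; limma adjusted p = 0.684). Without wild-type array 1 it was 0.15, without both replicate 1 arrays -0.0053, and with the enterocyte marker mean as covariate -0.10 ± 0.17. Wild-type array 1 was the lowest and VDR-null array 1 the highest, so leaving them out had to lower the difference. The enterocyte marker mean was itself higher in VDR-null duodenum, so as a covariate it had to lower the difference too. The 6 arrays fell in the same order for Rbp2 as for the mean of the enterocyte markers.

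A second probe set of Rbp2, dimmer than the first and therefore not used for the gene, repeated this pattern with a wider range. It read 9.49, 9.18 and 8.21 in VDR-null duodenum, against 6.42, 8.83 and 8.22 in wild-type duodenum. Again wild-type array 1 was the lowest and VDR-null array 1 the highest. Its difference was 1.13 ± 0.63 (SE; limma adjusted p = 0.683) when it stood in for the first. Both probe sets were measured on the same 6 samples, so they are not independent evidence on the genotypes.

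Lrat, the lecithin retinol acyltransferase that makes retinyl esters, had the smallest p of the 7 genes. It read 8.88, 8.82 and 8.52 in VDR-null duodenum, against 8.34, 8.68 and 8.18 in wild-type duodenum. Wild-type array 2 lay above VDR-null array 3, and otherwise the VDR-null arrays were the higher ones. The difference was 0.34 ± 0.16 (SE; 95% confidence interval -0.04 to 0.72), 1.27-fold, with a limma unadjusted p of 0.071 and an adjusted p of 0.683. Its sign was positive in each of the 20 alternatives tried. Those that changed only the filter, prior, probe sets or replicate block could not alter the difference. It lay between 0.02 ± 0.19 (SE) with the smooth muscle covariate and 0.48 without wild-type array 2. Without both replicate 1 arrays it was 0.24, and with the enterocyte covariate 0.23. Unlike Rbp2, its lowest array was wild-type 3, followed by wild-type 1, the arrays with the highest smooth muscle marker means (10.43 and 10.34). A link between them was not tested.

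**Figure D2:**
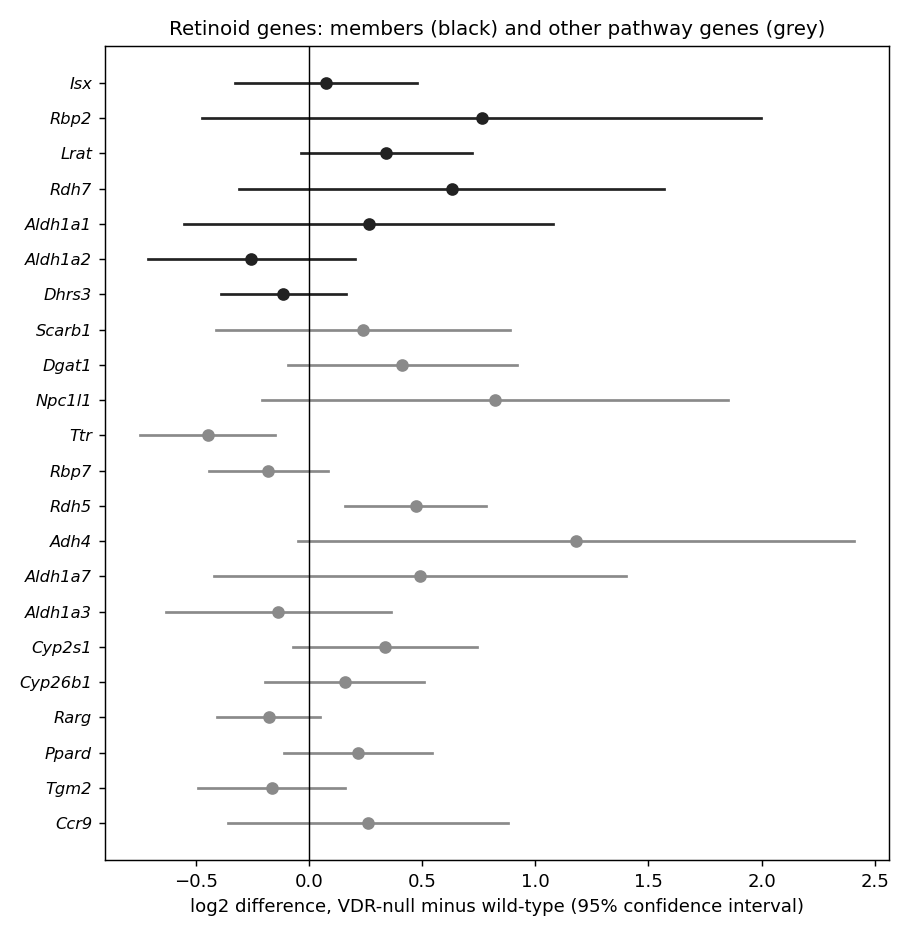
Log2 difference, VDR-null minus wild-type (x axis), with its 95% confidence interval from limma, for the 7 tested vitamin A genes (black) and for 15 other genes of the pathway (grey, y axis). The interval spans 0 in each of the 7, and among the grey genes that of Rdh5 lies above 0 and that of Ttr below it, neither past the adjusted threshold.

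The oxidation of retinol to retinal was represented by Rdh7 and Rdh1, short-chain dehydrogenases of the mouse whose genes lie in a cluster on chromosome 10. Rdh7 spans 127884027 to 127889247 and Rdh1 127759726 to 127768299 (GRCm38.p6). Rdh7 read 9.41, 8.66 and 8.45 in VDR-null duodenum, against 7.43, 8.84 and 8.36 in wild-type duodenum. VDR-null array 1 was the highest and wild-type array 1 the lowest, with the other 4 arrays between 8.36 and 8.84 and in mixed order. The difference was 0.63 ± 0.40 (SE; 95% confidence interval -0.31 to 1.57), or 1.55-fold, with a limma adjusted p of 0.683. It was 0.24 without wild-type array 1, 0.34 without VDR-null array 1, -0.049 without both and -0.0029 ± 0.18 with the enterocyte covariate. As for Rbp2, leaving out these arrays or fitting the covariate had to lower the difference.

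Rdh1 was dim on all 6 arrays. It read 4.31, 4.64 and 4.53 in VDR-null duodenum, against 4.48, 4.42 and 4.51 in wild-type duodenum, and was not tested. No fold is given between values this close to background, and the genotypes overlapped. Related genes of the same family, named here because they resemble Rdh1 and Rdh7 in sequence and not by the rule for named genes, were Rdh9 and Rdh16. Rdh9 read 7.95, 6.50 and 5.95 in VDR-null duodenum, against 4.997, 6.35 and 6.31 in wild-type duodenum, and Rdh16 exceeded the dim line on VDR-null array 1 only, with 6.13. Probes of such close relatives can share target sequence, so which of these genes gave the signal is uncertain.

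The step from retinal to retinoic acid was represented by Aldh1a1 and Aldh1a2. Aldh1a1, the retinal dehydrogenase best known from epithelia, was bright. It read 10.42, 9.81 and 9.27 in VDR-null duodenum, against 9.01, 9.95 and 9.75 in wild-type duodenum. The lowest array was again wild-type 1 and the highest VDR-null 1, but VDR-null array 3 was below both other wild-type arrays. The difference was 0.26 ± 0.34 (SE; 95% confidence interval -0.55 to 1.08; limma adjusted p = 0.800). It changed sign with single arrays, to -0.017 without wild-type array 1 and -0.030 without VDR-null array 1. Without both it was -0.31 ± 0.21 and with the enterocyte covariate -0.27 ± 0.18. Leaving out the highest VDR-null or the lowest wild-type array had to lower the difference, and so had the covariate, as for Rbp2. Aldh1a7, a near-identical mouse relative, read 7.05, 6.31 and 6.17 in VDR-null duodenum, against 5.46, 6.82 and 5.79 in wild-type duodenum, and the array may not separate these genes.

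Aldh1a2, the retinal dehydrogenase known from stromal, mesothelial and dendritic cells, lay opposite to Aldh1a1 on both replicate 1 arrays. It read 6.75, 7.46 and 7.15 in VDR-null duodenum, against 7.53, 7.42 and 7.17 in wild-type duodenum. VDR-null array 1, highest for Aldh1a1, was lowest here, and wild-type array 1, lowest for Aldh1a1, was highest. The difference was -0.26 ± 0.19 (SE; 95% confidence interval -0.71 to 0.20; limma adjusted p = 0.691), and 0.0097 without both replicate 1 arrays. Of 8 fibroblast markers all 8 were lower in VDR-null duodenum. Their mean ran from 8.36 to 8.80 on VDR-null arrays and from 8.75 to 9.13 on wild-type arrays. VDR-null 1 was lowest and wild-type 1 highest, as for Aldh1a2. Markers of crypt and dividing cells (8.88 and 9.69) and of Paneth cells (10.84 and 12.07) had the same arrays at the ends. That order was thus not particular to fibroblasts. Of 8 tested markers of dendritic cells and macrophages 5 were higher, with means of 7.31 to 7.70 on VDR-null and 7.05 to 7.56 on wild-type arrays. Of 6 mesothelial markers 3 were dim, among them the defining Msln, and 1 of the 3 tested was higher. The part of these cells in the Aldh1a2 values was not tested.

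Dhrs3, the reductase that turns retinal back into retinol and is itself induced by retinoic acid, varied least of the 7 tested genes. It read 8.84, 8.81 and 8.51 in VDR-null duodenum, against 8.75, 8.86 and 8.90 in wild-type duodenum. All values but that of VDR-null array 3 lay within 8.75 to 8.90. The difference was -0.11 ± 0.12 (SE; 95% confidence interval -0.39 to 0.16; limma adjusted p = 0.741). It was negative in each of the 20 alternatives, from -0.22 with the enterocyte covariate to -0.0074 without VDR-null array 3. As for Lrat, those that changed only the filter, prior, probe sets or replicate block could not alter it.

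The spread between mice of 1 genotype set these genes apart from each other. The pooled SD within genotypes was 0.827 for Rbp2, 0.623 for Rdh7 and 0.537 for Aldh1a1, against a median of 0.152 over all genes tested. Only 1.06%, 2.21% and 3.2% of the genes tested had a larger one than Rbp2, Rdh7 and Aldh1a1. For Dhrs3 it was 0.141, with 55.5% of genes above it. The centred array profiles of Rdh7 and Aldh1a1 differed by a root mean square of 0.25 log2 units, those of Rbp2 and Rdh7 by 0.30 and those of Aldh1a1 and Rbp2 by 0.44. The closest pair was Dhrs3 and Isx, with 0.17, and the most unlike Aldh1a2 and Rbp2, with 0.93. This measure takes in how widely a gene ranged, since the profiles were centred and not scaled. Aldh1a1 was nearer to Lrat (0.35) than to Rbp2, with ranges of 1.41, 0.70 and 2.30 log2 units in that order. Dhrs3 and Isx had small ranges, 0.39 and 0.62. Rbp2, Rdh7 and Aldh1a1 each had wild-type array 1 lowest and VDR-null array 1 highest, as the enterocyte and the T cell markers had. With the enterocyte marker mean as covariate the differences of these 3 genes were at or below 0, each with a limma adjusted p of 0.999. With the smooth muscle marker mean they were likewise near 0 but less precise, at 0.0092 ± 0.73 for Rbp2, 0.021 ± 0.54 for Rdh7 and -0.087 ± 0.52 for Aldh1a1 (SE). Both marker means themselves differed between the genotypes, by 0.83 for enterocytes and -0.37 for smooth muscle. For genes that rose with the former or fell with the latter, the differences had to drop. These fits thus cannot show that the genotype has no effect.

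**Figure D3:**
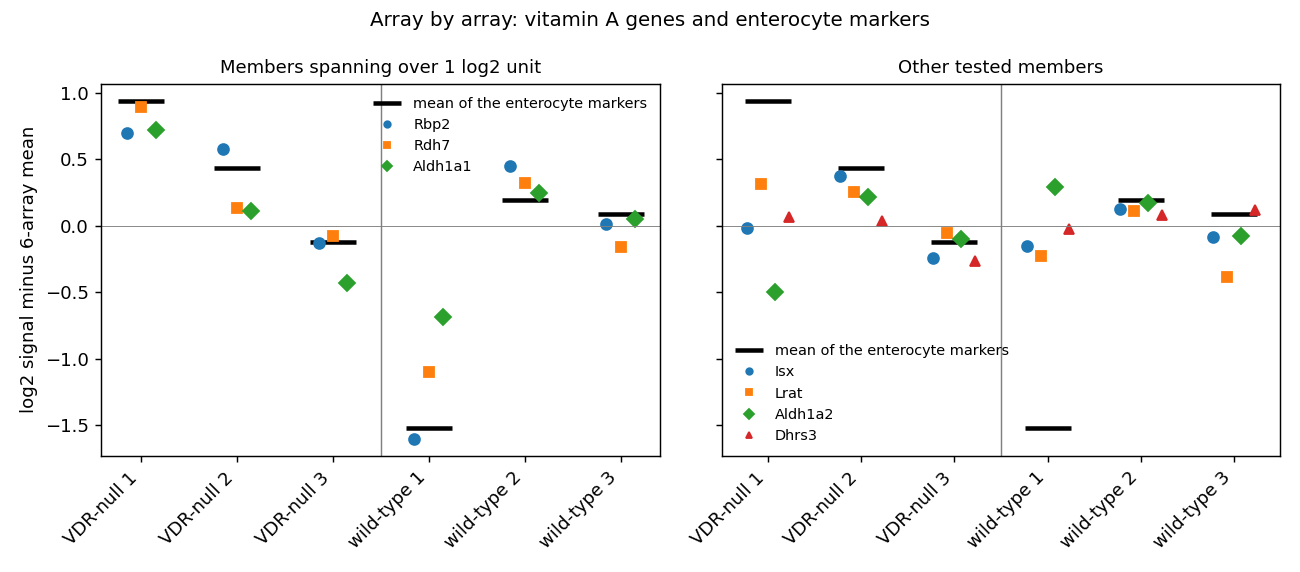
Log2 signal minus the mean of the 6 arrays (y axis) on each array (x axis, VDR-null left of the line) for Rbp2, Rdh7 and Aldh1a1 (left panel) and for Isx, Lrat, Aldh1a2 and Dhrs3 (right panel), with the mean of 18 enterocyte markers as black bars. The left genes lie near the bars on most arrays, with both low at wild-type 1, and Aldh1a2 lies opposite to the bars on both replicate 1 arrays.

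Outside the vitamin A genes, the tested genes most like the 3 variable ones were found by the root mean square difference of the centred profiles over the 6 arrays. For Rbp2 they were Sult1b1, a sulfotransferase (0.13), and Slc51a, a subunit of the basolateral organic solute transporter (0.15). For Rdh7 they were Khk, the fructose kinase (0.08), and the immunoglobulin superfamily gene Igsf9 (0.09). For Aldh1a1 they were the kinesin Kifc3 (0.08) and the glutathione transferase Gstt1 (0.10). All 6 were lowest on wild-type array 1 and highest on VDR-null array 1, which follows from their choice by likeness to genes with those ends. Their differences ran from 0.23 for Gstt1 to 0.88 for Sult1b1, with limma adjusted p-values from 0.683 to 0.768.

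The wider pathway was described by 7 lists with 88 genes that are not among the 9, of which 56 were tested. In VDR-null duodenum 37 of these were higher and 19 were lower, with a median difference of 0.06, where 44% of all genes tested were higher. The adjusted threshold was passed by 0 of them. At a limma unadjusted p under 0.05 stood 1 higher and 1 lower gene, against 5.23% of all genes tested. The genotypes did not overlap in 2 higher genes and 1 lower gene of the 56, against 11.1% of all genes tested. Among 16 genes of uptake, secretion and ester turnover 12 were higher (median 0.25). They include Dgat1, an acyltransferase that also esterifies retinol, at 0.41 ± 0.21, and Npc1l1, the sterol uptake protein, at 0.82 ± 0.43 (SE). That list had its lowest mean on wild-type array 1, 8.14, and its highest on VDR-null array 1, 9.10, as the enterocyte markers had, and its median was 0.00072 without both replicate 1 arrays and 0.0038 with the enterocyte covariate.

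Of 5 tested retinoid-binding proteins 1 was higher and 4 were lower (median -0.05, which ran from -0.11 without VDR-null array 3 to 0.017 without wild-type array 2 and was -0.18 with the smooth muscle covariate). Ttr, transthyretin, which carries the retinol-binding protein of blood, read 7.82, 7.86 and 8.22 in VDR-null duodenum, against 8.40, 8.43 and 8.41 in wild-type duodenum. The genotypes did not overlap, as in 11.1% of all genes. The difference was -0.45 ± 0.13 (SE), with a limma unadjusted p of 0.00917 and an adjusted p of 0.683. Rbp7, a cellular retinol-binding protein, differed by -0.18 ± 0.11.

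Of 13 tested genes listed as retinol and retinal oxidoreductases 10 were higher, counting Adh5 at 0.00019. The median, 0.10, was the value of Bdh1, a ketone body enzyme that the list includes. In 2 of the 13, Rdh5 and Rdh10, the genotypes did not overlap (11.1% of all genes). Rdh10, named for that after its values were seen, is a retinol dehydrogenase and differed by 0.36 ± 0.16 (SE). Rdh5, a retinol dehydrogenase best known from the eye, read 6.18, 6.02 and 5.77 in VDR-null duodenum, against 5.38, 5.62 and 5.57 in wild-type duodenum. All VDR-null arrays were above all wild-type arrays, by a difference of 0.47 ± 0.13 (SE; limma unadjusted p = 0.00914, adjusted p = 0.683). Adh4, an alcohol dehydrogenase that oxidises retinol, read 9.16, 9.04 and 8.18 in VDR-null duodenum, against 6.56, 8.62 and 7.66 in wild-type duodenum, a difference of 1.18 ± 0.52 (SE) with wild-type array 1 again lowest. Rdh5 and Adh4, like Ttr and Rbp7, were picked for a small p within their lists, which favours groups that do not overlap.

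The lists closest to retinoic acid itself held fewer genes, and receptors and targets had medians near 0. Of the other retinal dehydrogenases Aldh1a7 differed by 0.49 ± 0.38 and Aldh1a3 by -0.14 ± 0.21 (SE). All 3 tested genes of retinoic acid breakdown were higher, with Cyp2s1 at 0.34 ± 0.17 and Cyp26b1, a retinoic acid hydroxylase, at 0.16 ± 0.15, while Cyp26a1 was dim on all 6 arrays. Of 9 receptors and partners 6 were higher (median 0.01), with the retinoic acid receptor Rarg at -0.18 ± 0.10 and Ppard at 0.22 ± 0.14. Of 8 genes known as retinoic acid targets 4 were higher and 4 lower (median -0.02), with the transglutaminase Tgm2 at -0.17 ± 0.14 and the gut-homing receptor Ccr9 at 0.26 ± 0.26. The adjusted p-values of these named genes were 0.683 or above in limma.

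**Figure D4:**
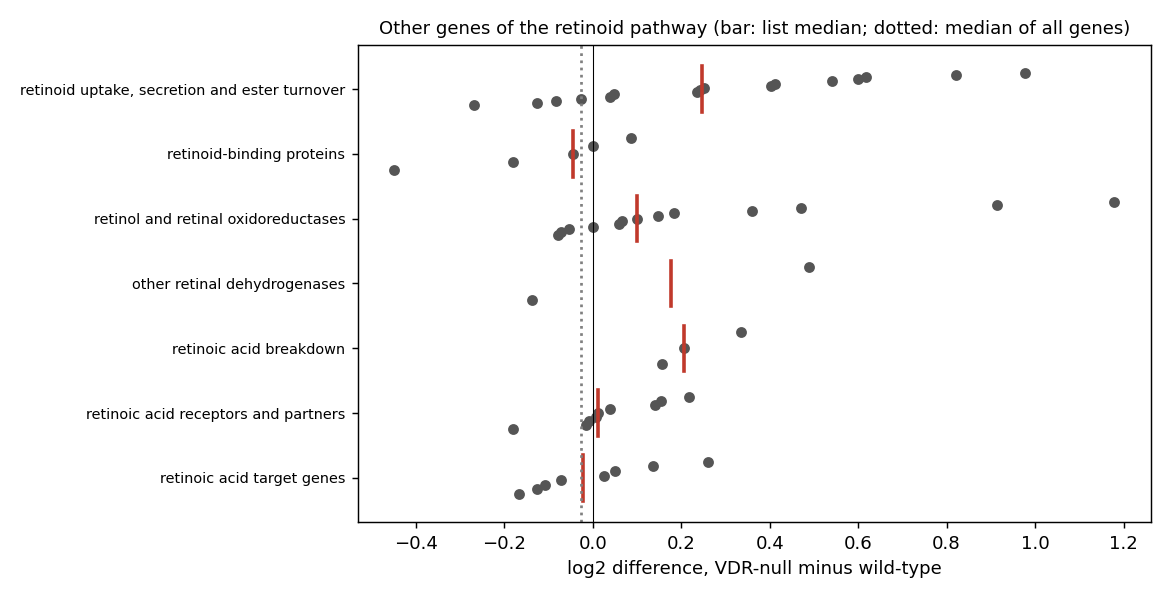
Log2 difference, VDR-null minus wild-type (x axis), of each tested gene (points) in 7 lists of the retinoid pathway (y axis), with the list median in red and the median of all 13174 genes, -0.03, as a dotted line. Genes of uptake, secretion and ester turnover have a median of 0.25, which was 0.00072 without both replicate 1 arrays. Receptors and target genes have medians near 0.

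**Figure D5:**
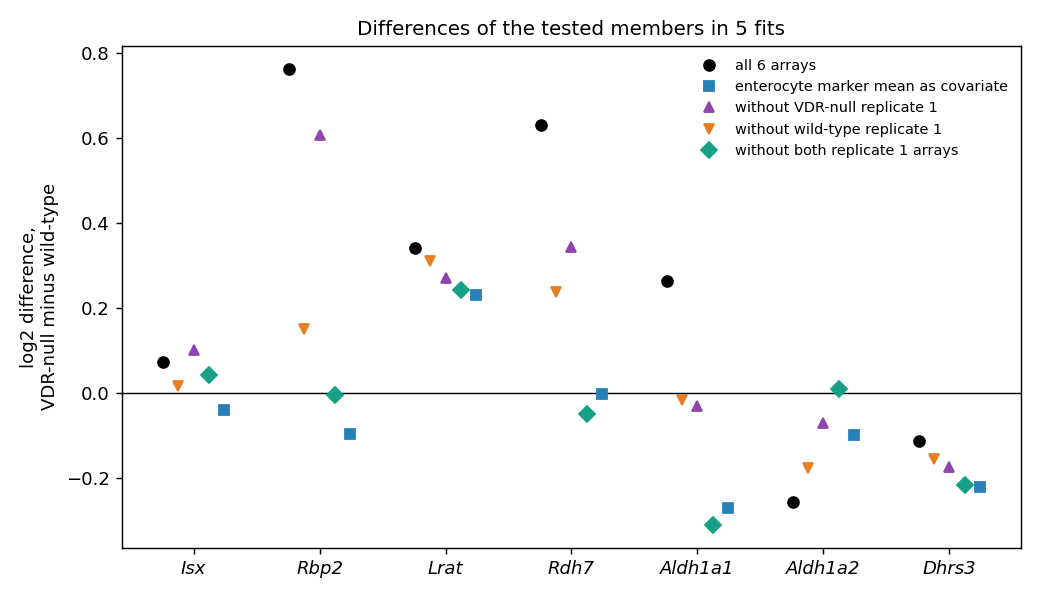
Log2 difference, VDR-null minus wild-type (y axis), of the 7 tested vitamin A genes (x axis) in 5 fits: all 6 arrays, 3 fits with arrays left out, and the enterocyte marker mean as covariate. Rbp2 and Rdh7 go to about 0 without both replicate 1 arrays, and Aldh1a1 goes below 0. Lrat stays between 0.23 and 0.34 in these 5 fits, but was 0.02 with the smooth muscle covariate, which is not drawn. For Rbp2, Rdh7 and Aldh1a1 the replicate 1 arrays were the highest VDR-null and the lowest wild-type, so leaving them out had to lower the difference. The enterocyte marker mean was itself higher in VDR-null duodenum, so that covariate had to lower it too.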

How the data were processed

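The authors deposited 1 log2 signal per probe set and array, with RMA and Affymetrix Expression Console named, without versions, in the submitters' processing notes. RMA gives logarithms to base 2, and the values span 1.99 to 13.8. The platform annotation paired 23521 of 41345 probe sets with a single gene symbol, and each of 22180 genes was represented by its brightest probe set on average. All 9 genes were matched by gene ID to the RefSeq table (GRCm38.p6). Testing required that 3 or more of the 6 arrays exceed the median of all values, 5.17.

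The genotype difference was fitted with lmFit and eBayes of limma 3.58.1 (R 4.3.3; two-sided, without covariates), and p-values were adjusted by Benjamini-Hochberg over 13174 genes at a threshold of 0.05. SEs are moderated. The fit was tested on simulated data. The number of arrays limits the precision. The genes, lists and alternatives were chosen with earlier results of these data known. Beside the 9 genes, the text names Scarb1, the 2 genes with the smallest p of each pathway list where none passed, and the 2 most similar genes of each of the 9 that ranged over at least 1 log2 unit. Genes named outside this rule were Rdh9, Rdh10, Rdh16, Adh5, Bdh1, Cyp26a1, Vdr, Xist and Msln. Motifs were searched on both strands as spelled out with the promoters. The 20 alternatives changed the filter, normalization, prior, array weights, probe sets, covariates, replicate block or arrays used; 1 more, the dimmer Rbp2 probe set, was added after the data were seen.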

Additional observations from a re-analysis of the deposited data

How the results depend on the processing

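In all 20 alternatives 0 genes and 0 of the vitamin A genes passed the limma threshold, with 136 to 2718 genes at an unadjusted p under 0.05. The median difference of the tested vitamin A genes, 0.26, was -0.097 with the enterocyte covariate, -0.087 with the smooth muscle covariate and -0.0053 without both replicate 1 arrays; leaving out 1 array gave 0.017 to 0.45. Signs turned with the enterocyte covariate for Isx (-0.039), Rbp2 (-0.097), Rdh7 (-0.0029) and Aldh1a1 (-0.27), with the smooth muscle covariate for Isx (-0.090) and Aldh1a1 (-0.087), without both replicate 1 arrays for Rbp2 (-0.0053), Rdh7 (-0.049), Aldh1a1 (-0.31) and Aldh1a2 (0.0097), and with array weights for Aldh1a2 (0.073). Leaving out 1 array gave -0.030 to 0.55 for Aldh1a1 and -0.093 to 0.22 for Isx. For Rbp2, Rdh7 and Aldh1a1 the replicate 1 arrays held the highest VDR-null and the lowest wild-type value. For Aldh1a2 they held the lowest VDR-null and the highest wild-type value. Leaving both out thus had to move these differences toward the other sign. The marker means used as covariates differed between the genotypes themselves, so those fits cannot separate the genotype from the markers. The cause was not tested. Lrat and Dhrs3 kept their sign in all 20, though not all of these could change it. The choice of filter or prior leaves each difference as it was, so no sign could turn there. The other normalizations changed no sign of the 7 genes. Whether the replicate numbers of the titles pair the samples is not known. Deviations of same-numbered arrays correlated across genes by -0.62, 0.19 and -0.26, and those of differently numbered arrays by -0.60 to 0.68. With 3 arrays per genotype these correlations depend on each other, so they cannot decide it. With the number as a block (replicate block) the differences were the same by construction, such as 0.76 for Rbp2 and the median 0.26. That fit had 0 genes past the threshold and 338 at a limma unadjusted p under 0.05, against 689 without the block. Bco1 and Rdh1 lie at or below the median of all values, where background limits any difference.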
